A study of Mus musculus with 4 samples.

Results

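The genes described here encode the proteins of the cytosolic ribosome. They were chosen by symbol: every gene with a single-symbol probe set whose name is Rpl or Rps followed by a number, with or without a final a, x or y, together with Rpsa, Rplp0, Rplp1 and Rplp2. A gene with several such probe sets was represented by the one with the highest mean over all arrays. This gave 64 of the 17097 genes measured, 23 of the small ribosomal subunit and 41 of the large one. RefSeq holds 76 genes that match the rule, and the other 12, among them Rpl5 and Rps27a, are not analysed here.

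Mouse mammary gland cells were profiled on Affymetrix arrays 3 days after transplantation. For BC alone, 10000 BC cells were transplanted, which the labels describe as multipotent. For the control, 2000 BC cells went in together with 8000 LC cells, and the labels describe them as unipotent. The abbreviations usually stand for basal and luminal cells, but no label says so, and none gives strain, age, genotype or sort gate. Each group had 2 arrays, with RNA from 50 sorted cells for each. No label ties the arrays to separate animals. A p-value here therefore weighs a difference against array-to-array spread alone, possibly of technical origin, and precision is limited by having so few arrays. LC cells were present only where fewer BC cells were given, so the effects of the one and the other cannot be told apart.

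The ribosome translates messenger RNA into protein. Its small subunit reads the message and its large subunit joins amino acids, and each is built of ribosomal RNA and many small, mostly basic proteins. Cells need most of these proteins in equal numbers, and their genes are usually expressed together and strongly in every cell type. Translation of their messages is tied to growth signals through mTOR.

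Control replicate 2 stood apart from the other 3 arrays, and the results on the ribosomal protein genes and the median of each other translation or respiratory list are therefore also given without it. The SD over all genes was 1.47 log2 there (1.99 to 2.02 on the others), and the 99th percentile of all genes lay at a level of 9.31 (10.67 to 10.69). Its median was 5.10, against 4.95 or 4.96. Basal markers, 6 genes including Krt5, Krt14 and Acta2, had median levels of 10.26 and 9.83 in BC alone and of 10.14 and 6.81 in the control. The 7 luminal markers had 8.19 and 8.04 against 8.51 and 7.54, and the 7 fibroblast markers 8.65 and 8.39 against 6.57 and 5.92. The 5 endothelial markers had medians of 5.84 and 6.64 in BC alone and 5.78 and 5.35 in the control, and the 7 immune markers 5.12 and 4.86 against 5.35 and 5.31. The 3 pericyte markers measured had 8.41 and 7.78 against 6.20 and 6.94. Of the 2 erythroid markers measured, Hba-a1, a globin, had 11.09 and 8.31 against 11.59 and 10.64. The other, Alas2, had 5.10 and 5.02 against 6.57 and 6.21. Placed by rank among all genes on the array, the basal markers had median percentiles of 98.2 and 97.2 in BC alone and 98.0 and 85.2 in the control. The luminal markers had 88.7 and 87.3 against 91.4 and 93.1, a median highest on control replicate 2. That holds for the median only, and the ranks of single markers are not given. By level 5 of the 7 were lowest on that array. The fibroblast markers had 91.9 and 90.1 against 73.1 and 69.0. On all 4 arrays that middle value was Thy1, so it does not describe the other fibroblast markers. No detection calls came with the values, so no marker could be called absent. Whether cell makeup had a part in the ribosomal protein values was not tested. In bulk samples such as these, fewer cells of a type and less RNA per cell cannot be told apart.

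Ribosomal protein genes were among the brightest on every array, and their levels were nearly equal on 3 of the 4. Their median log2 level was 11.185 in both BC alone libraries, and 11.25 and 9.945 in the control. BC alone and control replicate 1 thus differed little, and control replicate 2 lay lower. All 64 genes had a higher mean in BC alone, where 46.7% of all genes did, with a median log2 difference of 0.62, against -0.04 over all genes. Most of those are dimmer than the members. Among the 8550 genes left without the dimmer ones the median difference was 0.375, and 0.62 for the 63 members among them. When control replicate 2 was left out, 12 of the 64 had the higher mean in BC alone and 51 the lower, with a median difference of -0.04. The direction therefore rested on that array. It also depended on the scaling of the arrays: 43 of the 64 were higher after quantile normalization and 5 after cyclic loess.

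Limma called 0 of the 64 members at an adjusted p of 0.05, and 0.0% of all genes. Their adjusted p ran from 0.842 to 0.981. At an unadjusted p under 0.05 in limma the members numbered 0, with a smallest p of 0.169, and all genes 680. Standard errors of the members' log2 differences ran from 0.34 to 0.80, with a median of 0.49. With 2 arrays in each group the smallest two-sided p that exact permutation allows is 0.333. For 4 of the 64 genes, Rpl10, Rpl31, Rpl37a and Rplp0, both BC alone values were above both control values, against 16.8% of all genes, and 0 had them below, against 19.6%. No member differed at least 2-fold without overlap between the groups, while 5.69% of all genes did.

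**Figure D1:**
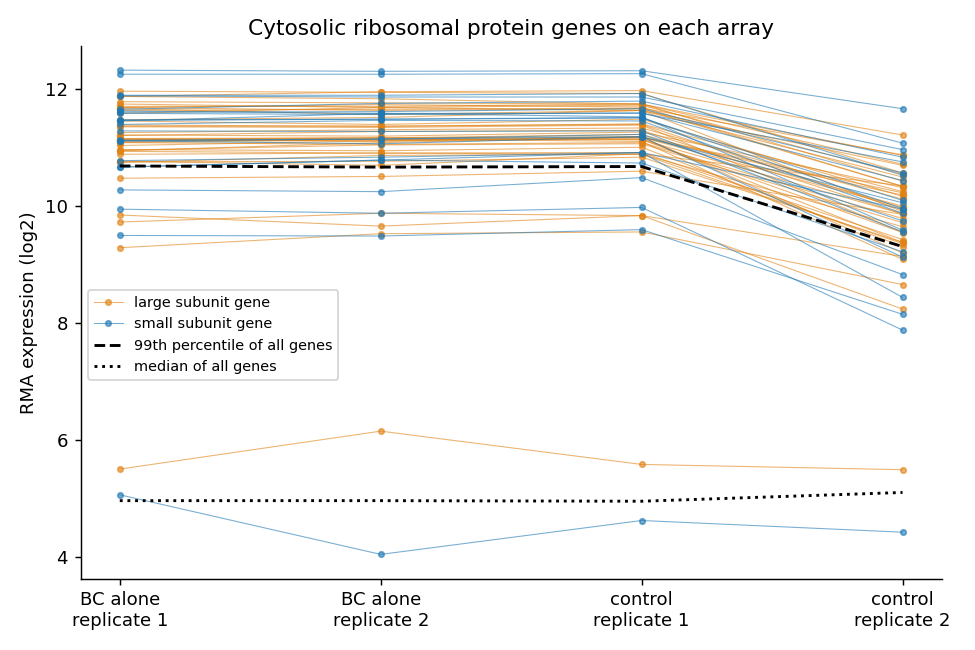
Log2 RMA expression of the 64 cytosolic ribosomal protein genes (vertical axis) on each of the 4 arrays (horizontal axis), 1 line per gene, blue for the small and orange for the large subunit. The dashed line is the 99th percentile and the dotted line the median of all 17097 genes on that array. The lines run nearly flat over the first 3 arrays and drop on control replicate 2, as the dashed line does, from 10.68 to 9.31. Rpl14 and Rps15a lie far below the others.

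The agreement of the first 3 arrays was close. The range over BC alone replicates 1 and 2 and control replicate 1 had a median of 0.075 log2 among the members and 0.37 among all genes. It was at most 0.2 for 58 of the 64 members and for 29.7% of all genes. Other bright lists were also tight, with a median range of 0.105 for elongation factors, 0.20 for initiation factors and 0.26 for respiratory chain subunits. Dimmer lists were wider, at 0.49 for mitochondrial ribosomal proteins and 0.62 for ribosome biogenesis. Between the BC alone arrays 54 members differed by at most 0.1, and between BC alone replicate 2 and control replicate 1, which come from different groups, 55 did. For BC alone replicate 1 and control replicate 1 the number was 47. Across the groups these arrays were thus about as alike as within BC alone.

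Small remaining differences from control replicate 1 mostly went one way. The BC alone mean was below control replicate 1 for 51 of the 64 genes, against 48.8% of all genes. The differences of the BC alone mean from that array ran from -0.225 log2 for Rps18 to 0.245 for Rpl14. Control replicate 1 lay above both BC alone arrays for 40 members, against 33.8% of all genes, and below both for 4, against 33.2%. With 1 control array these comparisons have no replicate check.

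On control replicate 2 the members were lower by unequal amounts. For 63 of the 64 it was the lowest array, against 34.1% of all genes, and the exception was Rps15a. The mean of the other 3 arrays exceeded it by 0.15 to 2.35 log2, with a median of 1.285 and quartiles of 0.92 and 1.51, and by at least 1 for 46 members. The 99th percentile of all genes was lower there by 1.37. Small and large subunit genes had median shortfalls of 1.38 and 1.28, and the same median difference between the groups, 0.62.

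**Figure D2:**
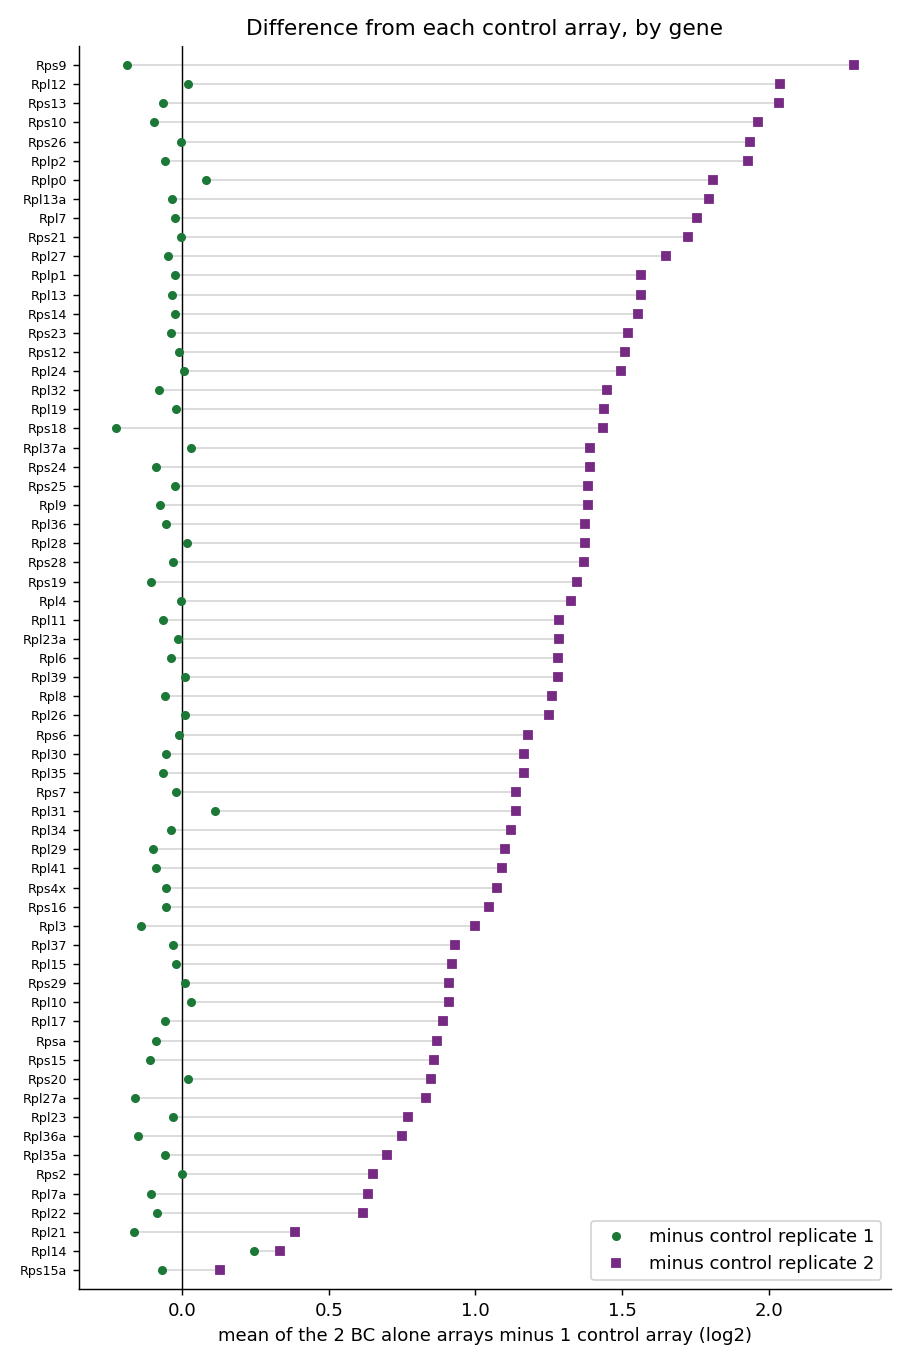
Mean log2 level of the 2 BC alone arrays minus that of 1 control array (horizontal axis) for each of the 64 genes (vertical axis), ordered by the difference from control replicate 2. Green circles, the differences from control replicate 1, lie between -0.225 and 0.245. Purple squares, those from control replicate 2, are all above 0 and reach 2.29 for Rps9.

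Among small subunit genes, Rps9 had the largest difference between the groups. Its protein lies near the channel through which the message enters. Rps9 had log2 levels of 10.67 and 10.79 in BC alone and 10.92 and 8.44 in the control, means of 10.73 ± 0.08 and 9.68 ± 1.75 (SD, n = 2). It was highest on control replicate 1 and lowest on control replicate 2, so the groups overlapped. The log2 difference was 1.05 ± 0.80 (SE, limma, adjusted p = 0.842), and -0.19 without control replicate 2.

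Rps13 had 9.95 and 9.88 in BC alone and 9.98 and 7.88 in the control, a log2 difference of 0.985 ± 0.70 (SE). Rps26, whose protein sits where the message leaves the ribosome and whose human counterpart is mutated in Diamond-Blackfan anaemia, had 11.46 and 11.59 against 11.53 and 9.59, a log2 difference of 0.965 ± 0.66. Rps10, another gene of that anaemia, had 11.12 and 11.07 against 11.19 and 9.13, a log2 difference of 0.935. Another probe set of Rps10, almost as bright, had 10.72 and 10.77 against 10.82 and 10.16, a log2 difference of only 0.255. In each of these genes control replicate 1 lay within or above the BC alone values and only control replicate 2 was lower. Rps19, the gene in which mutations of that anaemia were first found, was among the 5 dimmest members, with 9.50 and 9.49 against 9.60 and 8.15.

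The brightest member by mean signal was Rps2, whose protein also lies near the entry of the message. It had 12.33 and 12.31 in BC alone and 12.32 and 11.67 in the control, 1 of the smaller shortfalls on control replicate 2. Rps6, the target of the S6 kinases downstream of mTOR, had 12.26 and 12.26 against 12.27 and 11.08. Rps14, whose reduced dosage causes the anaemia of a human deletion syndrome, had 11.40 and 11.47 against 11.46 and 9.88. Rps4x, from an X-linked gene, had 11.12 and 11.15 against 11.19 and 10.06. Rpsa, also known as the laminin receptor precursor, had 11.66 and 11.76 against 11.80 and 10.84. In all 5 genes the groups overlapped, since control replicate 1 lay at or above at least 1 BC alone array.

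The large subunit genes of the acidic stalk, which recruits translation factors, had shortfalls of 1.57 to 1.95 log2 on control replicate 2, above the upper quartile of the members. Rplp0, the core of the stalk, had 11.75 and 11.69 in BC alone and 11.64 and 9.91 in the control. It was above both controls, by 0.08 over control replicate 1, and its log2 difference between the groups was 0.945 ± 0.60 (SE). Rplp1 had 11.09 and 11.14 against 11.14 and 9.55, and Rplp2 had 11.15 and 11.11 against 11.19 and 9.20. Rpl12, whose protein binds at the base of the stalk, had 11.11 and 11.15 against 11.11 and 9.09, a log2 difference of 1.03 ± 0.67 (SE). For Rplp1, Rplp2 and Rpl12 control replicate 1 equalled or exceeded a BC alone array.

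Genes of other parts of the large subunit had shortfalls on control replicate 2 from 0.90 log2 for Rpl10 to 1.81 for Rpl13a among the 6 described next. Rpl11, which with Rpl5 and a small ribosomal RNA can bind Mdm2 and so stabilise the tumour suppressor encoded by Trp53, had 10.96 and 11.05 in BC alone and 11.07 and 9.72 in the control. Rpl39, whose small protein lines the exit tunnel of the nascent chain, had 11.13 and 11.17 against 11.14 and 9.87. Rpl4, another tunnel protein, had 11.69 and 11.64 against 11.67 and 10.34. All 3 had a control replicate 1 value between or above the BC alone values. Rpl10, which joins the large subunit late in its assembly, had 11.79 and 11.77 against 11.75 and 10.87, above both controls but by only 0.03 over the first. Rpl13a, also part of a complex that blocks translation of inflammatory messages, had 11.36 and 11.35 against 11.39 and 9.56. Rpl31 had 11.88 and 11.84 against 11.75 and 10.72, and its BC alone mean exceeded control replicate 1 by 0.11.

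The large subunit genes Rpl21, Rpl22 and Rpl7a were among the 5 members with the smallest group differences. Rpl21 had 10.77 and 10.70 in BC alone and 10.90 and 10.35 in the control, a log2 difference of 0.11 ± 0.34 (SE). Rpl22, which is dispensable for general translation but needed for T cell development, had 9.85 and 9.66 against 9.84 and 9.14, a log2 difference of 0.265 ± 0.37 (SE). Rpl7a had 10.48 and 10.51 against 10.60 and 9.86, also 0.265 ± 0.37. Rpl35a, with 11.88 and 11.96 against 11.98 and 11.22, and the X-linked Rpl36a, with 9.29 and 9.53 against 9.56 and 8.66, had shortfalls of 0.72 and 0.80 on control replicate 2. Rpl13, also among the dimmest members, had 9.73 and 9.88 against 9.84 and 8.24.

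The other members with the smallest differences, Rps15a and Rpl14, were the dimmest of all 64 and varied differently from the rest. Rps15a had 5.06 and 4.04 in BC alone and 4.62 and 4.42 in the control, close to the median of all genes. Rpl14 had 5.50 and 6.15 against 5.58 and 5.49. Their log2 differences were 0.03 ± 0.43 and 0.29 ± 0.35 (SE), and their ranges over the first 3 arrays, 1.02 and 0.65 log2, were the widest among the members. Each had 1 single-symbol probe set. Another 4 probe sets name Rpl14 together with a pseudogene and were not used.

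**Figure D3:**
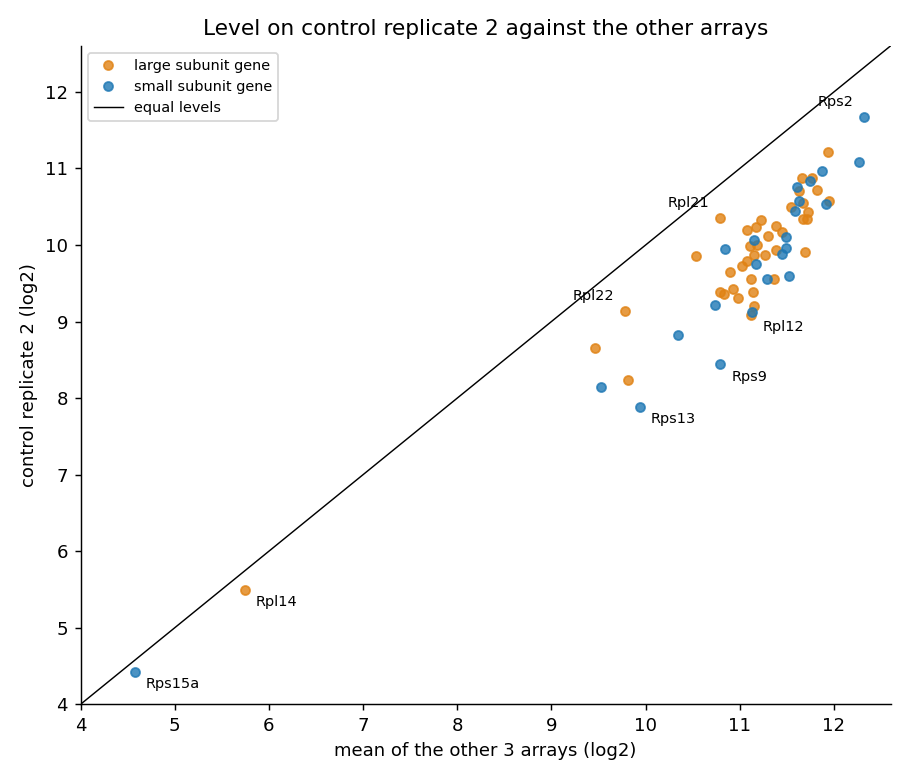
Log2 level of each of the 64 genes on control replicate 2 (vertical axis) against its mean on the other 3 arrays (horizontal axis), blue for the small and orange for the large subunit. The line marks equal levels and all points lie below it, by 0.15 for Rps15a to 2.35 for Rps9.

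Placed by rank among all genes, the members hardly differed between the arrays. A gene's percentile is its rank among all 17097 genes on that array as a percent, and it does not change with the scale of the array. The median percentile of the members was 99.5 and 99.6 in BC alone and 99.6 on both controls, and 50 to 55 of the 64 exceeded the 99th percentile on each array. Differences in mean percentile between the groups had a median of 0.0 and exceeded 1 point for 4 genes only. Of the members 32 had a higher mean percentile in BC alone, against 48.3% of all genes. By percentile 2 of the 64 members lay above both controls, a smaller share than the 17.0% of all genes. Below both lay 19 of the 64, a larger share than the 18.0% of all genes. Percentiles this close to the top leave little room to differ.

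Positions counted from the brightest gene resolve the members further. Rps9 was at positions 178 and 149 on BC alone replicates 1 and 2, 119 on control replicate 1 and 415 on control replicate 2. Rplp0 was at 18, 23, 27 and 78 on these arrays, and Rps13 at 416, 450, 402 and 791. Rpl21 moved the other way, at 156, 163, 127 and 41, and so did Rpl22, at 462, 587, 451 and 201. These genes took other places on control replicate 2 than on the others. Among the 64 genes the Spearman correlation of levels was 0.988 to 0.991 between the first 3 arrays and 0.849 to 0.866 between each of them and control replicate 2. Genes are not independent replicates, and these values only describe the arrays. Different probe sets bind with different strength, so positions order signals and not amounts of RNA.

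Promoter sequences are shown for members at both ends of the range of differences and for Rps6, because the messages of ribosomal protein genes are known to begin with a run of pyrimidines, C or T in the gene, through which mTOR controls their translation. RefSeq promoters of build GRCm38.p6, 250 bases before to 50 after the annotated start, were held for 50 of the 64 members and for 13514 of all genes measured. Each line runs 5′ to 3′ from 60 bases before the start to 20 after it, and capitals mark the longest run of C and T found between 30 bases before and 20 after the start.
Rps9: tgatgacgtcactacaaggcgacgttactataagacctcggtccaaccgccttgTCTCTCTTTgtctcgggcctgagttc
Rpl12: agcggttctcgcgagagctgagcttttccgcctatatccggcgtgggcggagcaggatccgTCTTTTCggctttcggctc
Rps26: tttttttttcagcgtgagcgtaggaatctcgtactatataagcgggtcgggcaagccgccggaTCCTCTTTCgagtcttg
Rplp0: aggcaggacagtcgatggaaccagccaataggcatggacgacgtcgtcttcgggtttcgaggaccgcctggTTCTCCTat
Rpl7a: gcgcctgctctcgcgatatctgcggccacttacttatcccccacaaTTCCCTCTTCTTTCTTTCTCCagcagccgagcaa
Rpl22: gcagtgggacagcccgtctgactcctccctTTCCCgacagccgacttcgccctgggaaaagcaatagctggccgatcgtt
Rps6: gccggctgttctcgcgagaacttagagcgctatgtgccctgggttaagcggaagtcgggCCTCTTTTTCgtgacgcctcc

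These windows are chr7:3703981-3704060 (plus strand) for Rps9, chr2:32961652-32961731 (plus) for Rpl12 and chr10:128626487-128626566 (minus) for Rps26. They are chr5:115559407-115559486 (plus) for Rplp0, chr2:26910747-26910826 (plus) for Rpl7a, chr4:152325666-152325745 (plus) for Rpl22 and chr4:86857348-86857427 (minus) for Rps6. The marked run had 9 bases in Rps9, 7 in Rpl12, 9 in Rps26, 7 in Rplp0, 21 in Rpl7a, 5 in Rpl22 and 10 in Rps6. The Rpl22 run is cut by the edge of the window and has 14 bases in full, while the others end within it. Rpl7a, with the same group difference of 0.265 log2 as Rpl22, had the longest of these runs. The windows of Rps13, Rps15a and Rpl14, also at the ends of the range, are not shown. Their longest runs had 6, 10 and 14 bases. Annotated starts can lie some bases from the start used, so a run need not be at base 1.

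Over the 50 members with a promoter the longest run in that window had a median of 7 bases, against 5 over all 13514. It reached at least 8 bases in 23 members, or 46.0%, and in 19.5% of all promoters. The core CCGGAAG bound by ETS factors occurred on either strand within the promoter of 21 members, or 42.0%, and in 13.8% of all. The GC box GGGCGG occurred in 58.0% and 54.1%, the letters TATAAA of the TATA box in 5 members and in 10.1% of all, and AAGATGGC, a form of the YY1 site, in 3 members and 3.8% of all. None of these searched motifs contains another. A match is only a match of letters.

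Other probe sets of the members were less uniform. The 64 genes had 123 single-symbol probe sets, 32 genes having more than 1. Of the 59 dimmer ones, 45 had a higher mean in BC alone and 14 a lower one, in 13 genes. The opposite probe sets were dim: their mean levels over the 4 arrays ran from 3.35 to 8.05 log2 with a median of 4.62, and 8 of the 14 lay under the median gene, at 5.015. The opposite ones included probe sets of Rps10 at -0.58 log2, Rps13 at -0.305, Rpl24 at -0.285, Rpl39 at -0.215 and Rpsa at -0.21, and a pair of probe sets of Rpl41 at -0.16 and -0.205. The rest belonged to Rpl15, Rpl21, Rpl23, Rpl31, Rpl9, Rps20 and Rps24, at -0.135 to -0.03. Bright probe sets of a gene could also differ in size, with log2 differences of 0.47 and 0.89 for Rpl10, 0.375 and 0.90 for Rps15 and 0.45 and 0.85 for Rpl37. Those of Rpl27 were close, at 0.80, 0.73 and 0.81. For some genes the size of a difference, and so its place among the members, thus depended on the probe set. Of the probe sets used, 18 carry the suffix x, which marks probes that may bind other transcripts, and 5 the suffix s, for probes shared by several transcripts. Ribosomal protein genes have many processed pseudogenes and close copies, so single values may mix sources.

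Relatives outside the rule behaved much like the members where they were bright. Rps27l, a paralog of Rps27, had 9.52 and 9.56 in BC alone and 9.46 and 7.69 in the control. Rpl22l1, a paralog of Rpl22, had 8.28 and 8.26 against 8.23 and 6.94. Fau, which encodes a ubiquitin-like protein fused to a small subunit protein, had 10.84 and 10.80 against 10.91 and 9.60. These 3 genes were among the 5 of 7 measured relatives that were lowest on control replicate 2. Rpl36al, a paralog of Rpl36a, had 10.79 and 10.90 against 10.92 and 9.53. Rpl3l, a paralog known from muscle, was dim, with 3.48 and 3.42 against 3.60 and 4.13.

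Elongation factors, which carry transfer RNA to the ribosome and move it along the message, included 6 bright genes and 4 dim ones. Of 10 measured, 8 had a higher mean in BC alone and 0 passed in limma, with a median log2 difference of 0.52, or -0.03 against control replicate 1 alone. Eef1d, a subunit of an exchange factor, had 11.23 and 11.19 against 11.19 and 9.56. Eef1a1 had 12.23 and 12.25 against 12.22 and 11.26, and Eef2 had 11.33 and 11.34 against 11.33 and 10.25. The last 2 were almost equal on the first 3 arrays. Eefsec, the factor for selenocysteine, was dim and had 6.20 and 5.72 against 7.31 and 5.82. Of 29 initiation factors 28 had a higher mean, at a median of 0.775, and 0 passed. Against control replicate 1 alone their median difference was 0.0. Eif3e, a subunit of the factor that prepares the small subunit, had 8.56 and 8.64 against 8.11 and 6.50. Eif6, which keeps the subunits apart, had 9.70 and 9.94 against 9.34 and 9.07.

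Genes of ribosome biogenesis were dimmer and more mixed. Of 54 measured, 38 had a higher mean and 16 a lower one, with a median log2 difference of 0.21 and 0 past the threshold. Rrn3, a factor that brings RNA polymerase I to ribosomal DNA, had 7.10 and 7.08 against 6.34 and 6.12. Ubtf, which binds ribosomal DNA, had 7.70 and 7.83 against 7.17 and 6.83. Utp20 and Noc3l, of ribosome assembly, had 6.61 and 6.93 against 5.80 and 5.82, and 6.36 and 6.14 against 5.32 and 5.61. Both controls lay below both BC alone arrays for these 4 genes, which are those with the smallest p of the list. Both BC alone values were above both control values for 7 of the 54 genes and below both for 4, against 16.8% and 19.6% of all genes. Against control replicate 1 alone the median difference of the list turned to -0.125.

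Regulators of growth and translation were divided, with 16 of 22 higher and 5 lower and 0 past the threshold. Their median log2 difference was 0.495, and -0.05 against control replicate 1 alone. Myc, which drives ribosome production, had 9.89 and 10.06 against 10.04 and 6.96. Its shortfall on control replicate 2 was thus larger than that of any ribosomal protein gene. Mycn, its relative, had 5.87 and 6.0 against 6.37 and 7.05, highest on control replicate 2. Larp1, which binds messages with a pyrimidine start, had 7.61 and 7.62 against 7.76 and 6.73. Rptor, a component of an mTOR complex, had 6.68 and 7.03 against 6.66 and 5.35. Myc and Larp1 were named after their values were seen.

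The ribosomes of mitochondria are built from other genes, and 71 of them were measured. Of these 54 had a higher mean in BC alone, with a median log2 difference of 0.255, and 17 had both BC alone values above both control values and 4 below, against 16.8% and 19.6% of all genes. Mrpl36 had 8.21 and 7.79 against 7.08 and 6.25, and Mrps5 had 6.14 and 5.94 against 4.99 and 5.51. Subunits of the respiratory chain encoded in the nucleus also had mostly higher means in BC alone. Of 69 measured, 68 had a higher mean, at a median of 0.84, and control replicate 2 was the lowest array for 67. Ndufa3, of the first complex of the chain, had 10.23 and 10.32 against 9.83 and 8.0, and Ndufv3 had 9.50 and 9.31 against 8.42 and 7.63. Against control replicate 1 alone the BC alone means of both groups of genes differed by a median of -0.10 and -0.015. In both lists 0 genes passed in limma. Differences between these lists and the members were not tested.

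**Figure D4:**
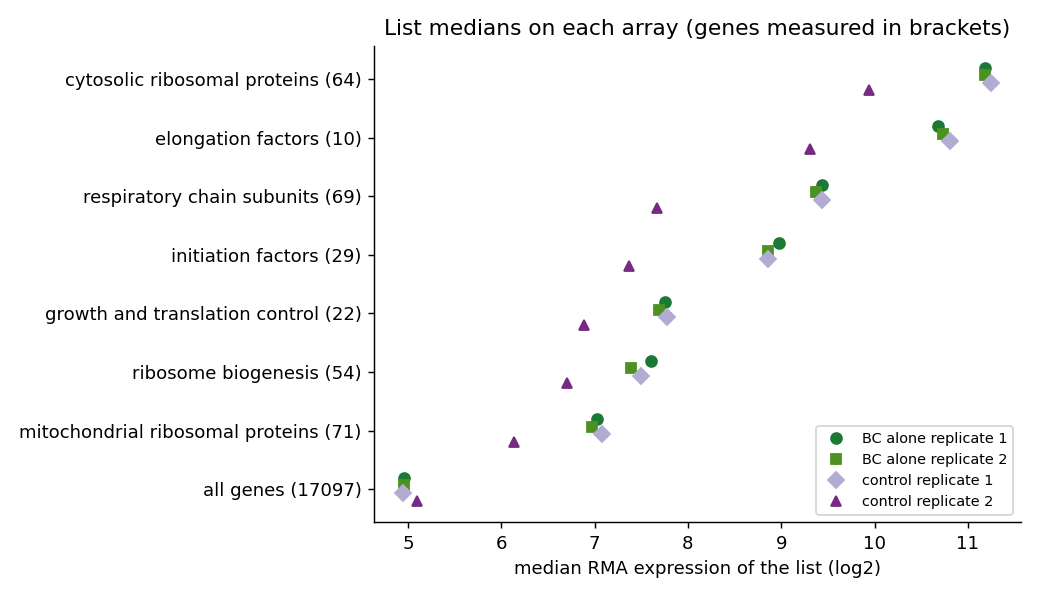
Median log2 expression of each gene list (rows, with the number of genes measured) on each of the 4 arrays, shown by marker shape and colour. In every list the triangles of control replicate 2 lie left of the other 3 markers, by the most for respiratory chain subunits (7.67 against 9.37 to 9.44), while over all genes they lie right of them (5.10 against 4.95 and 4.96).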

How the data were processed

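Values are log2 expression per probe set, deposited by the authors, 1 column per array, and the submitters' processing notes name RMA and affy, without versions. RMA subtracts background, aligns the arrays' distributions and combines the probes of a set. The deposited columns did not share 1 distribution. Whether all 4 arrays were normalised together is not given in the sources used here. Platform annotation gave 28898 of 45141 probe sets 1 symbol, and 17097 genes remained after the brightest probe set was kept for each. All 64 members matched RefSeq by Entrez identifier.

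BC alone was compared with the control in limma 3.58.1 under R 4.3.3 (lmFit, eBayes, no trend or block, two-sided, Benjamini-Hochberg over all genes), with 2 residual and 3.50 prior degrees of freedom. The fit was tested on simulated data. Errors are the SD of 2 arrays or the standard error of the fit. A difference is BC alone minus control.

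Named members were a set chosen for their roles, the 5 highest and 5 lowest differences, the brightest and dimmest, those of non-overlapping groups at least 2-fold apart (0) and those with opposite probe sets. Up to 4 genes of each other list were named by smallest p, and others named with them were chosen for their roles. Members, lists and rules were chosen with earlier results of these data known. The 12 alternatives were 3 scalings, 2 variance models, a replicate block, the mean of probe sets, a filter on dim genes and leaving out each array.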

Additional observations from a re-analysis of the deposited data

How the results depend on the processing

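No member passed an adjusted p of 0.05 under any of the 12 alternatives, while all genes past it numbered 97 with an intensity trend and 108 with the replicate block, against 0. The deviations of same-numbered arrays from their group means had a correlation of -0.018 over all genes. With 2 arrays in each group both numbers give this same value by construction, so it does not show whether the arrays were paired. With the replicate block the members' median log2 difference stayed at 0.62. With every array centred on its median, the median difference was 0.085 over all genes, where it had been -0.04, and 0.745 over the members. After quantile normalization 43 of 64 members were higher, at a median of 0.06, and after cyclic loess 5 were, at -0.34. Without 1 array the count higher in BC alone ran from 12 to 64 and the median difference from -0.04 to 1.28, both ends set by control arrays: -0.04 without control replicate 2 and 1.28 without control replicate 1. Members without overlap numbered 4, but 22 after quantile normalization, 44 after cyclic loess, 8 with the mean of probe sets and 12 to 63 without 1 array (14 and 12 without BC alone replicates 1 and 2, 63 and 44 without control replicates 1 and 2). Those also at least 2-fold apart numbered 0, but 1 after median centring and 0 to 46 without 1 array. These counts pool both directions, and after cyclic loess 59 of the 64 members had the lower mean in BC alone. The shares of all genes under these settings are not given here, and a group left with 1 array overlaps less easily. The counts are therefore no result about the members. The median percentile difference was 0.0, and -0.034 with the mean of probe sets and -0.033 to 0.019 without 1 array. The cause of these changes was not tested. A group left with 1 array was assumed to vary like the other group.

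Of the 10 members with the highest or lowest differences, quantile normalization turned Rpl21 to -0.43, Rpl22 to -0.45 and Rpl7a to -0.38. Cyclic loess turned Rpl21 to -0.845, Rpl22 to -0.57, Rpl7a to -0.655, Rplp0 to -0.065 and Rps26 to -0.026. Without 1 array the log2 difference ran from -0.165 to 0.385 for Rpl21, -0.085 to 0.615 for Rpl22, -0.105 to 0.635 for Rpl7a, -0.035 to 0.615 for Rpl14, -0.48 to 0.54 for Rps15a, -0.065 to 2.035 for Rps13, -0.005 to 1.935 for Rps26 and -0.19 to 2.29 for Rps9. Rpl12 and Rplp0 kept their direction there, from 0.02 to 2.04 and 0.08 to 1.81. With 2 arrays a group, small differences could not be resolved.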
